A study of Homo sapiens with 12 samples.

Results

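The HOX genes examined here were the rows of the gene table whose whole symbol was HOXA, HOXB, HOXC or HOXD followed by a number from 1 to 13. All 39 were listed among 28901 named genes. RNA-seq libraries came from ASC hTERT adipocytes, made from ASC52telo, an hTERT-immortalized human adipose-derived stromal cell line, at day 14 of adipogenic differentiation. All 4 groups had received a lentiviral shRNA vector with a ZsGreen reporter and were sorted for ZsGreen. They carried a scramble shRNA without LPS, the scramble shRNA with LPS (lipopolysaccharide, a bacterial cell-wall component) at 100 ng/mL for 4 h, a linc-ADAIN shRNA without LPS (linc-ADAIN KD) or the linc-ADAIN shRNA with the same LPS treatment, with 3 libraries in each group. The cells are thus sorted transduced populations of 1 immortalized line, not adipose tissue. The study describes its RNA-seq as a single experiment in triplicate, so p-values measure only the spread between these libraries, which may be technical. The extent of the knockdown was not analysed here.

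HOX genes encode homeodomain transcription factors that tell cells where they lie along the body axis. They sit in 4 clusters, and the order of genes along each cluster follows the order in which they are switched on from head to tail, with low numbers at the 3′ end acting anteriorly and high numbers at the 5′ end posteriorly. Genes with the same number in different clusters are paralogs, and stromal cells and adipocytes of different fat depots keep different HOX combinations in culture. In GENCODE release 44 (GRCh38), HOXA lies at chr7:27092993-27200091, HOXB at chr17:48528526-48728750, HOXC at chr12:53938831-54056030 and HOXD at chr2:176092721-176190907.

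Libraries held 28.4 to 53.8 M counts on named genes. Of 12 adipocyte markers, all were measured, and their summed level was 3560 to 4826 CPM (counts scaled to a fixed library size) in scramble libraries, 4069 to 4651 with LPS, 738 to 2108 in linc-ADAIN KD and 583 to 1324 in linc-ADAIN KD with LPS. In linc-ADAIN KD, 9 of them were lower by the test described below without LPS and 10 with LPS, and none was higher. FABP4, the fatty-acid carrier of adipocytes, had log2 fold changes of -1.66 without LPS (adjusted p = 0.00015) and -2.26 with LPS (adjusted p = 5.5e-06), and ADIPOQ, which encodes adiponectin, had -1.40 (adjusted p = 0.0054) and -2.26 (adjusted p = 8.4e-05). The study reports the opposite direction for this knockdown, with raised mRNA by qPCR and raised protein of adipogenic markers, these genes among them. The cause of this difference was not tested. Of 10 stromal markers, LUM was higher and THY1 and ENG were lower without LPS, and DCN joined LUM with LPS, at summed levels of 7310 to 8975 CPM in scramble and 9687 to 11527 CPM in linc-ADAIN KD. Immune markers summed to 58.2 to 61.9 CPM in scramble and 89.4 to 119 CPM in linc-ADAIN KD, mostly CD163 and CD68. These moved in opposite directions, CD163 from 4.33 ± 1.12 to 68.6 ± 13.7 CPM (log2 fold change 3.99, adjusted p = 1.7e-10) and CD68 from 53.6 ± 2.76 to 31.1 ± 2.34 CPM (-0.79, adjusted p = 7.8e-06), while CD3E and TYROBP were at 0 in every library and PTPRC reached at most 0.32 CPM. Endothelial markers summed to 8.65 to 27.4 CPM with CLDN5 at 0, and epithelial and skeletal muscle markers stayed at or below 1.67 and 3.75 CPM. Adipocyte and stromal marker levels thus differed between the groups in which HOX genes were compared, and their part in the HOX values was not tested. In bulk RNA, fewer cells of a type and less RNA per cell cannot be told apart.

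HOX transcripts came mostly from the middle and 5′ part of the HOXC cluster. Of the 39 genes, 29 reached the 10 counts over the 12 libraries needed for testing, and 17 of these averaged at least 50 counts per library. The well-covered genes were HOXA9, HOXA10 and HOXA11 in HOXA; HOXB2, HOXB3, HOXB4, HOXB6 and HOXB7 in HOXB, without HOXB5 between them; HOXC4, HOXC5, HOXC6, HOXC8, HOXC9, HOXC10 and HOXC11, thus 7 of 9 genes, in HOXC; and HOXD4 and HOXD8 in HOXD. By paralog number, 2 of 8 genes in groups 1 to 3, 9 of 15 in groups 4 to 8, 6 of 10 in groups 9 to 11 and 0 of 6 in groups 12 and 13 were well covered.

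RefSeq upstream stretches (GRCh38.p14) are shown for a well-covered gene and a gene almost without counts from each of HOXA and HOXD, to set their sequence beside their level. Each line gives the 250 bases before the RefSeq start on the strand of the gene, 5′ to 3′, with CG dinucleotides in capitals. HOXA9 (chr7:27165538-27165787, minus strand) and HOXD4 (chr2:176151300-176151549, plus strand) were well covered, while HOXA13 (chr7:27200092-27200341, minus strand) had 1 count and HOXD10 (chr2:176116528-176116777, plus strand) had 8 counts over all 12 libraries.
HOXA9: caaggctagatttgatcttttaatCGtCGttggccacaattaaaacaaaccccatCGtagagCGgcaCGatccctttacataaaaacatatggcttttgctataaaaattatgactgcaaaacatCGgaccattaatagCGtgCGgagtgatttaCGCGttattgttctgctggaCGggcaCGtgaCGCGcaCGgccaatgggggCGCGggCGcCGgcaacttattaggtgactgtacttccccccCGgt
HOXA13: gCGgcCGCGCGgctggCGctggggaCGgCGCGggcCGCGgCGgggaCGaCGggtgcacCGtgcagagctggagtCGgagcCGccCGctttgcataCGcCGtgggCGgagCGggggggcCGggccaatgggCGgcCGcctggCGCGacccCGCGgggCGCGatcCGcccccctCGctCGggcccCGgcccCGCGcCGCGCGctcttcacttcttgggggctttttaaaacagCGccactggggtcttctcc
HOXD4: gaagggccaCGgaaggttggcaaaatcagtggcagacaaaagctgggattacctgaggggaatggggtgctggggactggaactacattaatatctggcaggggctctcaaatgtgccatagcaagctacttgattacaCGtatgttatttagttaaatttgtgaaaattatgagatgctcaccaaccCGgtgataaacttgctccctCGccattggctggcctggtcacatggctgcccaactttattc
HOXD10: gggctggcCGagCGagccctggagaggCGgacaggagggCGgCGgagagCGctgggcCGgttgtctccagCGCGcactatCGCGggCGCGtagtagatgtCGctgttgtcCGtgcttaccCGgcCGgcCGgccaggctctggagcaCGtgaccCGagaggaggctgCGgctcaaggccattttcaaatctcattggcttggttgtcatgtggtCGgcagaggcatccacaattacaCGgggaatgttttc
The stretches held 20 CG dinucleotides for HOXA9, 40 for HOXA13, 4 for HOXD4 and 23 for HOXD10, against a median of 11 over 35116 RefSeq promoters. Other entries did not follow the order of these pairs, since HOXD8, which was well covered, had 28 and HOXA2, at 0 in every library, had 8. TATAAA, searched on both strands over the same 250 bases, was present for HOXA9 and absent for the other 3 (10.7% of promoters hold it). CCAAT, in either strand, was present in all 4 (32.0% of promoters), and TAATTA, a core homeodomain motif, in none of them (4.35%). These matches describe letters only, and 20 of the 39 genes had an upstream entry.

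Levels between genes were compared as TMM-scaled CPM per kilobase of exon (CPM/kb), where TMM is edgeR's between-library scaling. In scramble libraries without LPS, HOXC10, a posterior gene that in mouse fat represses brown adipocyte genes, was the highest at 25.3 ± 2.59 CPM/kb (SD, n = 3). HOXC8, which is known to restrain brown adipogenesis, followed at 13.3 ± 0.826 CPM/kb, and the library ranges of both stood apart from each other and from the next gene. HOXC9, often used as a marker of white adipocytes, had 5.61 ± 0.639 CPM/kb, HOXC6 had 5.11 ± 0.417, HOXB7 had 4.62 ± 0.346, HOXC11 had 4.59 ± 0.383 and HOXB2 had 4.52 ± 0.563, and each of these overlapped its neighbour in the order.

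A lower tier of HOXD4 (2.71 ± 0.335 CPM/kb), HOXA11 (2.60 ± 0.140), HOXD8 (2.35 ± 0.370) and HOXA9 (2.20 ± 0.0584) again had overlapping neighbours. HOXC5 (1.55 ± 0.427), HOXB6 (1.54 ± 0.205) and HOXB4 (1.50 ± 0.137) came next, and HOXA10 (1.02 ± 0.331), HOXC4 (0.814 ± 0.0819) and HOXB3 (0.686 ± 0.113) closed the order. In all, 11 of the 16 neighbouring pairs overlapped. By group mean, HOXC10 and HOXC8 held the first and second rank in all 4 groups, but in linc-ADAIN KD with LPS the libraries of HOXC8 (5.30 to 8.26 CPM/kb) overlapped those of HOXC9 (5.59 to 6.86 CPM/kb). The map of levels by cluster and paralog shows the means.

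**Figure D1:**
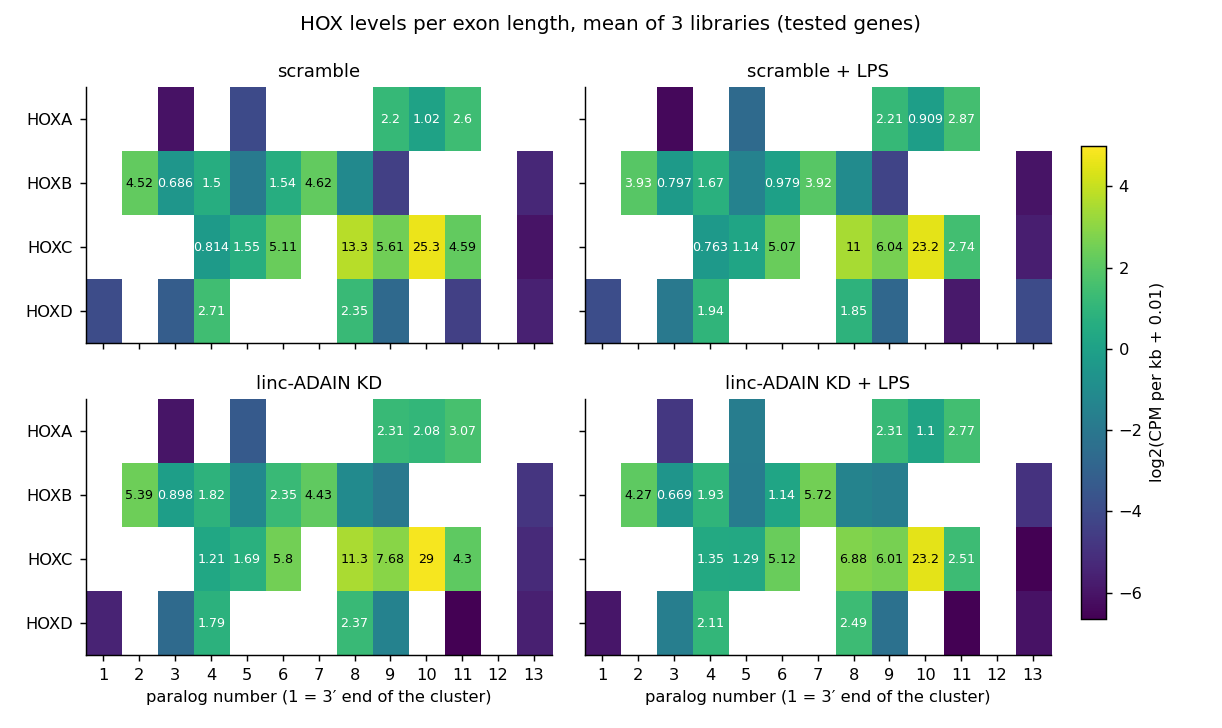
Mean level of the 29 tested HOX genes in the 4 groups, coloured by log2(TMM-scaled CPM per kb of exon + 0.01), with clusters in rows and paralog numbers in columns. Numbers give CPM/kb for the 17 well-covered genes, and white fields are paralogs that were not tested or do not exist in that cluster. HOXC10 is the brightest field in every panel, at 25.3, 23.2, 29.0 and 23.2 CPM/kb.

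The HOXC cluster made up 69.3% ± 0.103 (SD, n = 3) of the summed HOX level per kilobase in scramble libraries, HOXB 16.8% ± 0.334, HOXA 7.26% ± 0.520 and HOXD 6.68% ± 0.940. HOXC made up much the same with LPS (68.8% ± 0.987) and in linc-ADAIN KD (68.2% ± 0.752), and was 63.7% ± 2.06 in linc-ADAIN KD with LPS, where its 3 libraries lay at 62.5% to 66.1%, below all 9 other libraries. HOXC10 alone made up 29.1% to 33.1% of the summed level over the 12 libraries. The share of HOXC8 was 16.1% to 16.7% in scramble, 14.4% to 15.7% in scramble with LPS, 12.5% to 12.9% in linc-ADAIN KD and 7.61% to 11.1% in linc-ADAIN KD with LPS, so that the 4 groups did not overlap.

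Outside HOXC, the highest genes of each cluster included some whose 4 groups all overlapped and some whose groups did not. HOXA11, which patterns the forearm and uterus, had 7.33, 6.58 and 6.92 CPM in scramble, 8.51, 6.77 and 7.66 CPM in scramble with LPS, 7.03, 8.67 and 8.89 CPM in linc-ADAIN KD and 6.73, 7.98 and 7.49 CPM in linc-ADAIN KD with LPS. All 4 groups overlapped. HOXD8 had 5.75, 5.52 and 7.30 CPM, then 6.01, 3.67 and 4.94 CPM, 5.85, 6.63 and 6.25 CPM and 7.04, 5.36 and 7.28 CPM in the same order of groups, again with overlap. HOXD4 had 3.13, 2.68 and 3.44 CPM in scramble, above the 1.89, 2.05 and 2.67 CPM of scramble with LPS and the 1.35, 2.56 and 2.17 CPM of linc-ADAIN KD, while linc-ADAIN KD with LPS had 2.07, 2.15 and 2.99 CPM. HOXB7 had 6.89, 6.58 and 7.61 CPM in scramble and 6.11, 6.83 and 7.28 CPM in linc-ADAIN KD, which overlapped, and its values with LPS are given with that comparison. HOXB2, above HOXB7 per kilobase in scramble with LPS and in linc-ADAIN KD, had 12.1, 11.6 and 9.54 CPM in scramble. It had 10.2, 9.15 and 9.63 CPM in scramble with LPS, and 11.7, 14.9 and 13.2 CPM in linc-ADAIN KD. In linc-ADAIN KD with LPS it had 10.6, 9.72 and 11.1 CPM, below linc-ADAIN KD without LPS (edgeR log2 fold change -0.34, adjusted p = 0.16).

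Summed over all 39 genes, HOX transcripts made up 187 to 208 CPM in scramble, 174 to 185 CPM in scramble with LPS, 215 to 226 CPM in linc-ADAIN KD and 171 to 179 CPM in linc-ADAIN KD with LPS. The libraries of linc-ADAIN KD without LPS lay above all others, and the 2 groups with LPS lay below the 2 groups without it. These sums and shares are descriptions with no test.

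The genes that were not well covered had few or no counts. HOXB8 (16 to 77 counts per library), HOXD3 (11 to 76), HOXB5 (2 to 46), HOXD9 (5 to 45) and HOXA5 (1 to 23) were detected in every library. HOXB9 reached 57 counts and was at 0 in 1 library. HOXA3, HOXB13, HOXC13, HOXD1, HOXD11 and HOXD13 passed the count limit with at most 11 counts in any library. HOXA6, HOXA7, HOXA13 and HOXD10 had at most 4 counts in a library and were not tested. HOXA2, which patterns the hindbrain, HOXA4, HOXB1, HOXC12 and HOXD12 were at 0 in all 12 libraries, and a count of 0 allows up to 3 counts, or 0.0557 to 0.105 CPM at these depths (counting error only).

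Some HOX genes share exons with other genes on the same strand, which leaves their counts uncertain because the estimates divide shared reads. The shared part was 67.3% of exon bases for HOXC5, 17.5% for HOXC4, 16.1% for HOXC6, 16.6% for HOXB6 (with HOXB3) and 15.9% for HOXA9. It was 9.93% for HOXA10, 7.00% for HOXC10, 6.42% for HOXB3, 4.38% for HOXC9 and 2.20% for HOXB4. It was 0% for HOXC8, HOXC11, HOXB7, HOXB9 and HOXA11. The library kit keeps strand, but whether the pseudoalignment used it is not given in the sources used here, and an antisense gene overlaps HOXC6, HOXC9, HOXC10, HOXB6 and others.

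To ask whether the HOX pattern differed among the groups at all, edgeR's quasi-likelihood test was run across the 4 groups. It found 5 of 29 tested HOX genes at an adjusted p under 0.05, against 40.8% of all 17173 tested genes, and 4 of the 17 well-covered ones, against 56.4% of genes with the same coverage. These were HOXC8 (adjusted p = 8.6e-05), HOXC11 (adjusted p = 0.00019), HOXB6 (adjusted p = 0.0018), HOXC10 (adjusted p = 0.014) and HOXB9 (adjusted p = 0.043). The shares among HOX genes, 17.2% and 23.5%, are a description with no test. DESeq2 added HOXC4 to these, for 6 in all.

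HOXC8 was lowest in linc-ADAIN KD with LPS. Its level was 34.0, 30.0 and 32.1 CPM in the scramble libraries, 28.6, 24.6 and 26.6 CPM in scramble with LPS, 26.1, 27.3 and 28.6 CPM in linc-ADAIN KD and 12.8, 17.1 and 20.0 CPM in linc-ADAIN KD with LPS. The last group lay below all other libraries, while scramble with LPS and linc-ADAIN KD without LPS overlapped and both lay below scramble.

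HOXC11, a posterior gene active in hind limb development, was low in both LPS groups. It had 15.1, 16.2 and 13.7 CPM in scramble and 13.4, 13.9 and 14.8 CPM in linc-ADAIN KD, against 9.13, 7.17 and 10.5 CPM in scramble with LPS and 7.81, 9.44 and 7.35 CPM in linc-ADAIN KD with LPS. Every library with LPS lay below every library without it, whichever shRNA the cells carried.

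HOXC10 stood highest in linc-ADAIN KD without LPS. Its level was 63.3, 52.9 and 63.7 CPM in scramble, 58.4, 51.6 and 55.4 CPM in scramble with LPS, 67.9, 67.2 and 70.9 CPM in linc-ADAIN KD and 53.9, 57.2 and 53.8 CPM in linc-ADAIN KD with LPS. The linc-ADAIN KD libraries without LPS lay above the other 9, and the other 3 groups overlapped.

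HOXB6, a mid-cluster gene of trunk and limb patterning, was also highest in linc-ADAIN KD without LPS, with scramble next and the 2 overlapping LPS groups lowest. It had 4.18, 3.40 and 4.43 CPM in scramble, 2.74, 2.08 and 2.84 CPM in scramble with LPS, 7.61, 4.60 and 6.12 CPM in linc-ADAIN KD and 3.31, 3.18 and 2.43 CPM in linc-ADAIN KD with LPS. Within each shRNA, all libraries with LPS lay below those without. These values stand in the plot of counts by library.

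**Figure D2:**
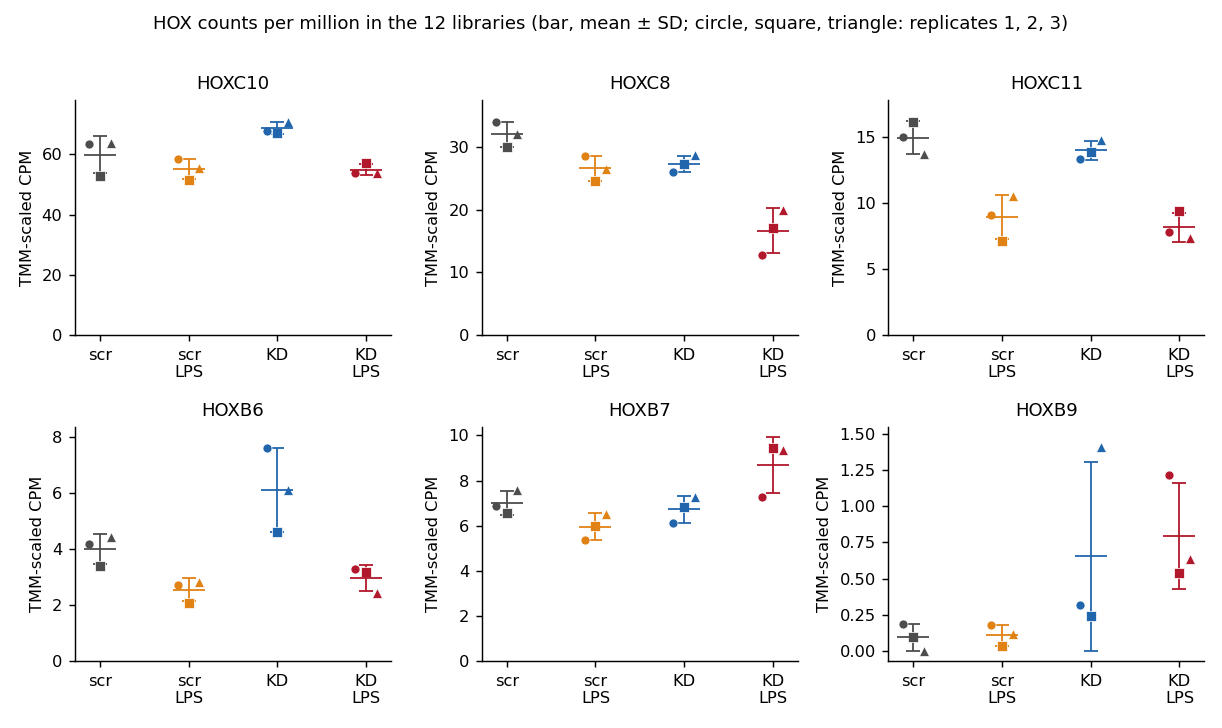
TMM-scaled CPM of 6 HOX genes in the 12 libraries, by group (scr, scramble; KD, linc-ADAIN KD), with points for libraries and bars for mean ± SD. HOXC11 is lower in all 6 libraries with LPS, HOXC8 is lowest in linc-ADAIN KD with LPS, and HOXB9 is close to 0 in scramble and spread between 0.241 and 1.41 CPM in linc-ADAIN KD.

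The first of the study's comparisons set linc-ADAIN KD against scramble without LPS. At an adjusted p under 0.05 and a change of at least 2-fold, 0 of 29 tested HOX genes passed, against 7.26% of all tested genes, and 0 of the 17 well-covered ones, against 8.74% of genes with the same coverage. At an unadjusted p under 0.05 there were 4, and DESeq2 called 1 (HOXB9), among 1404 calls over all genes. Counts at an unadjusted p are given without the share over all genes. By adjusted p alone, 1 passed, against 25.5% of all tested genes and 35.2% of the well-covered ones. That gene was HOXC9, at 8.14, 10.2 and 9.75 CPM in scramble and 11.7, 12.5 and 14.1 CPM in linc-ADAIN KD, with no overlap and a log2 fold change of 0.45 (SE 0.15, adjusted p = 0.036). Leaving out any 1 of 5 of the 6 libraries compared raised the adjusted p of HOXC9 to between 0.051 and 0.15, the exception being the first linc-ADAIN KD library.

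The median log2 fold change of the 17 well-covered genes was 0.20, against -0.02 over all genes with that coverage, and 13 of them were above 0. For 13 of the 17, the 95% interval of the difference lay inside a 2-fold change in either direction, while the 12 tested genes with fewer counts all had intervals that reached beyond it. For HOXC10 the interval was 0.02 to 0.38 on the log2 scale, for HOXC8 -0.50 to 0.04, for HOXC6 -0.06 to 0.42 and for HOXC11 -0.42 to 0.23. The 4 genes whose intervals reached beyond 2-fold were HOXA10, HOXB6, HOXC4 and HOXD4.

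HOXA10, a regulator of limb and uterine development, was the widest of these. It had 4.84, 4.11 and 2.45 CPM in scramble and 8.56, 6.44 and 8.17 CPM in linc-ADAIN KD, without overlap, at a log2 difference of 1.02 (SE 0.50, interval -0.03 to 2.07, adjusted p = 0.15). A fit to these 6 libraries alone, or without the filter on low counts, gave adjusted p values of 0.0091 and 0.049 and so called it. With LPS it ran from 1.15 to 6.47 CPM within scramble and from 1.65 to 7.47 CPM within linc-ADAIN KD, so that libraries of 1 group differed as much as groups did.

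With LPS in both arms, linc-ADAIN KD again called 0 of 29 HOX genes at 2-fold, against 8.3% of all tested genes and 9.96% of the well-covered ones. At an unadjusted p under 0.05 there were 4, and DESeq2 called 1 (HOXB9), among 1559 calls over all genes. By adjusted p alone 3 passed, against 26.9% and 36.9%: HOXC8 fell, and HOXB7 and HOXC4 rose. HOXC8 fell by 0.68 on the log2 scale (SE 0.13, interval -0.96 to -0.40, adjusted p = 0.00065), from the levels given above, and kept an adjusted p of at most 0.0043 under all alternatives.

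HOXB7, a mid-cluster gene, had 5.37, 5.98 and 6.54 CPM in scramble with LPS and 7.27, 9.44 and 9.35 CPM in linc-ADAIN KD with LPS, with no overlap and a log2 fold change of 0.54 (SE 0.17, adjusted p = 0.026). HOXC4, the most 3′ gene of its cluster, had 2.02, 2.68 and 1.64 CPM against 3.54, 3.42 and 4.25 CPM, also without overlap, at 0.83 (SE 0.29, adjusted p = 0.044). Both rises were fragile to the choice of libraries. Without 1 of 4 of the 6 libraries compared (replicates 1 and 2 of scramble with LPS, replicates 2 and 3 of linc-ADAIN KD with LPS), the adjusted p of HOXB7 was 0.056 to 0.096. For HOXC4 it was 0.062 to 0.16 without any 1 of the libraries compared other than replicate 2 of scramble with LPS, and 0.051 to 0.056 without 1 scramble library that had no LPS. In the 6 libraries alone or with no filter on low counts, HOXB7 had 0.051 and HOXC4 0.063 and 0.068.

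The median over the 17 genes was 0.12, against -0.00085 over all genes with that coverage, and 15 of the 17 intervals lay inside 2-fold, all but those of HOXA10 and HOXC4. HOXC10 had an interval of -0.19 to 0.18, HOXC6 of -0.23 to 0.26, HOXC9 of -0.33 to 0.32 and HOXC11 of -0.46 to 0.21. The comparisons without and with LPS share no library, and 11 of the 17 genes (64.7%) had the same sign in both, beside 79.3% of all genes with that coverage. Fold changes and intervals of both comparisons are drawn side by side.

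**Figure D3:**
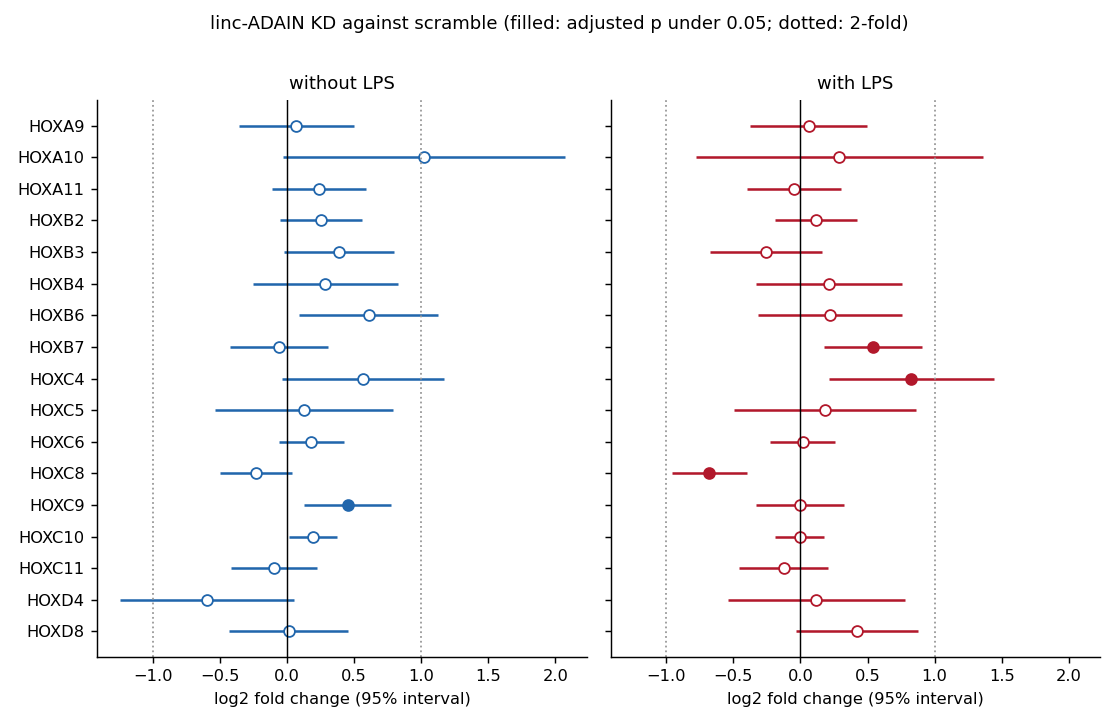
Log2 fold change of the 17 well-covered HOX genes in linc-ADAIN KD against scramble, without LPS (left) and with LPS (right), with 95% intervals from edgeR. Filled points have an adjusted p under 0.05, and dotted lines mark 2-fold. HOXC9 on the left and HOXB7, HOXC4 and HOXC8 on the right are filled, none of them at 2-fold.

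HOXB9, a posterior gene of the HOXB cluster, moved further than any well-covered gene but from very few counts. Its libraries held 10, 5 and 0 counts in scramble, 7, 1 and 5 in scramble with LPS, 11, 13 and 57 in linc-ADAIN KD and 43, 25 and 18 in linc-ADAIN KD with LPS. With and without LPS, the lowest linc-ADAIN KD library exceeded the highest scramble library in CPM. The log2 difference was 2.73 without LPS (SE 1.07, adjusted p = 0.072) and 2.80 with LPS (SE 1.08, adjusted p = 0.066) by edgeR, and 2.77 (adjusted p = 0.022) and 2.83 (adjusted p = 0.020) by DESeq2. Without the third linc-ADAIN KD library, the value without LPS was 1.52. The study itself had picked HOXB9 from these libraries, so its direction is not independent evidence.

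The response to LPS was read in each shRNA line on its own. Every HOX gene past the adjusted p threshold fell, 1 in scramble and 4 in linc-ADAIN KD. Of all tested genes past it, 1393 of 2298 fell in scramble and 1131 of 2026 in linc-ADAIN KD. Whether the HOX genes differ from these was not tested. In scramble cells, 0 of 29 HOX genes passed both thresholds, against 2.49% of all tested genes, with 2 at an unadjusted p under 0.05 and 0 by DESeq2. By adjusted p alone 1 passed, against 13.4%: HOXC11 fell by 0.74 on the log2 scale (SE 0.16, interval -1.07 to -0.41, adjusted p = 0.0030). HOXC8 had -0.27 (SE 0.13, interval -0.54 to 0.00, adjusted p = 0.21) and HOXB6 -0.65 (SE 0.25, interval -1.17 to -0.12, adjusted p = 0.11), each without overlap between the groups.

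In linc-ADAIN KD cells, 1 of 29 passed both thresholds, against 2.21% of all tested genes. At an unadjusted p under 0.05 there were 8, a count given without the share over all genes. Of these, HOXB7 was higher, with a log2 fold change of 0.37, and the others were lower. DESeq2 called 1 (HOXB6), among 432 calls over all genes. HOXB6 fell by 1.03 on the log2 scale (SE 0.25, interval -1.56 to -0.51, adjusted p = 0.0098), a call that was lost without replicate 1 of linc-ADAIN KD (-0.85, adjusted p = 0.064) or replicate 3 of linc-ADAIN KD with LPS (-0.91, adjusted p = 0.051). By adjusted p alone 4 passed, against 11.8%, and all 4 fell. Beside HOXB6, HOXC11 fell by 0.77 (SE 0.16, adjusted p = 0.0026), HOXC8 by 0.72 (SE 0.13, adjusted p = 0.00099) and HOXC10 by 0.32 (SE 0.09, adjusted p = 0.019).

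HOXC11 and HOXC8 kept an adjusted p of at most 0.016 and 0.0050 in linc-ADAIN KD under all alternatives. HOXC10 reached 0.059 to 0.069 without replicate 3 of linc-ADAIN KD or replicate 1 or 3 of linc-ADAIN KD with LPS. The median log2 fold change of the 17 genes was -0.19 in scramble and -0.32 in linc-ADAIN KD, against -0.0066 and 0.0036 over all genes with that coverage. In each line 12 of the 17 were below 0, 8 of them in both lines. The 2 LPS comparisons share no library, and the same sign in both was found for 52.9% of the 17 genes, beside 69.4% of all genes with that coverage.

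**Figure D4:**
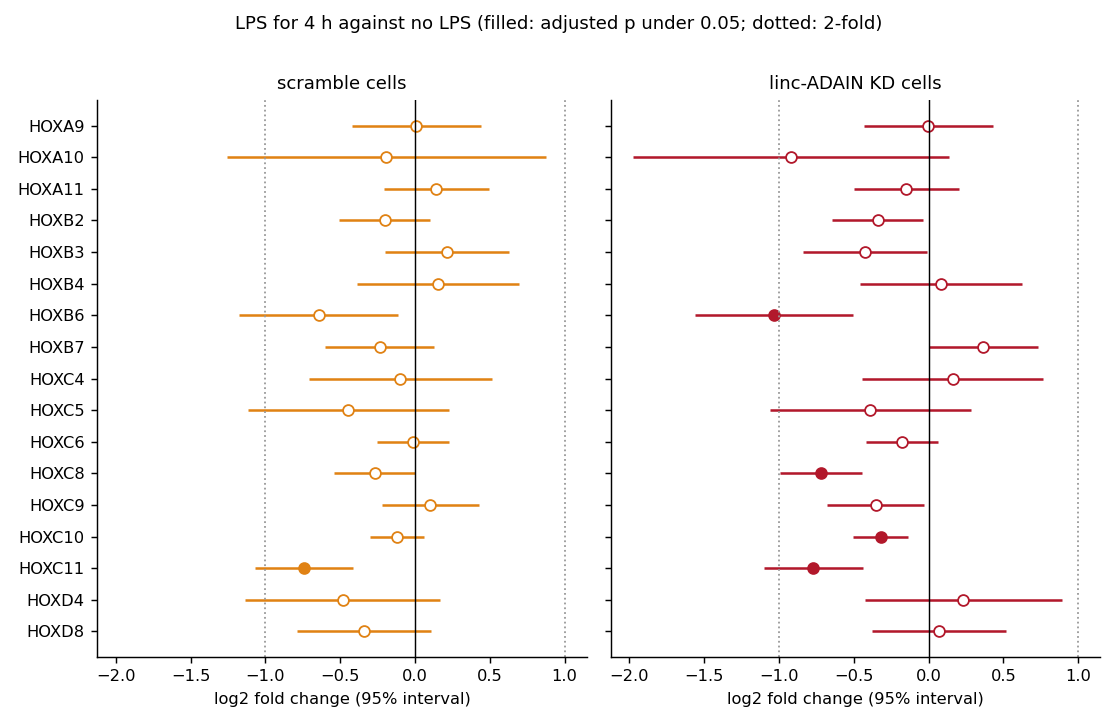
Log2 fold change of the 17 well-covered HOX genes after 4 h of LPS, in scramble cells (left) and linc-ADAIN KD cells (right), with 95% intervals from edgeR. Filled points have an adjusted p under 0.05, and dotted lines mark 2-fold. HOXC11 is filled on both sides, at -0.74 and -0.77, and HOXB6, HOXC8 and HOXC10 are filled on the right.

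A gene past the threshold in 1 line and not in the other need not differ between them, so the difference itself was tested as an interaction of KD and LPS. It called 0 of 29 HOX genes, against 1.28% of all tested genes, with 3 at an unadjusted p under 0.05 and 0 by DESeq2. The 3 were HOXC8 (-0.45, interval -0.84 to -0.06, adjusted p = 0.35), HOXB7 (0.60, interval 0.09 to 1.12, adjusted p = 0.34) and HOXB3 (-0.64, interval -1.23 to -0.06, adjusted p = 0.38). For HOXC11 the interaction was -0.03 with an interval of -0.49 to 0.44, for HOXC10 -0.20 (interval -0.46 to 0.06) and for HOXB6 -0.39 (interval -1.13 to 0.36). The interval lay inside 2-fold for 9 of the 17 genes and reached beyond it for the other 8.

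HOX proteins bind DNA together with homeodomain cofactors of the PBX, MEIS and PREP families. Of 8 tested cofactors, 0 passed both thresholds in either KD comparison. In the KD comparisons, counts past both thresholds in this and the next lists stand beside 7.26% and 8.3% of all tested genes. The difference was not tested. MEIS1, which pairs with posterior HOX proteins, rose with LPS in both lines, from 21.9 ± 3.29 to 62.4 ± 1.85 CPM in scramble (log2 fold change 1.51, SE 0.10, adjusted p = 1.1e-08) and from 23.7 ± 1.21 to 59.5 ± 3.81 CPM in linc-ADAIN KD (1.33, adjusted p = 5.4e-08). Its interaction was -0.18 (adjusted p = 0.73). MEIS1 was the only 1 of the 8 cofactors past both thresholds with LPS, against 2.49% of all tested genes in scramble and 2.21% in linc-ADAIN KD.

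Polycomb proteins keep HOX genes silent and Trithorax and MLL proteins keep them active. Of 20 Polycomb genes, CBX2 alone passed both thresholds in linc-ADAIN KD. By adjusted p alone, 7 of the 20 passed without LPS and 6 with LPS, beside 25.5% and 26.9% of all tested genes. CBX2 encodes a chromodomain subunit, and it rose from 0.470 ± 0.162 to 1.47 ± 0.700 CPM without LPS (log2 fold change 1.64, SE 0.54, adjusted p = 0.032) and from 0.260 ± 0.0237 to 1.54 ± 0.620 CPM with LPS (2.56, SE 0.57, adjusted p = 0.0023). Of 12 Trithorax and MLL genes, 0 passed both thresholds in either KD comparison. By adjusted p alone, 3 passed in each, beside the same 25.5% and 26.9%. The median log2 fold changes of the 2 lists were -0.04 without LPS and -0.05 and -0.08 with LPS.

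Retinoic acid switches on HOX genes through response elements in the clusters. Of 14 tested genes that make, break down or sense it, 2 were lower and 0 higher in linc-ADAIN KD without LPS, and 5 were lower and 0 higher with LPS. ALDH1A3, which makes retinoic acid, fell from 185 ± 50.1 to 35.0 ± 9.05 CPM (log2 fold change -2.40, SE 0.21, adjusted p = 1.2e-07), and with LPS from 149 ± 17.9 to 18.2 ± 4.81 CPM (-3.03, adjusted p = 6.9e-09). CYP26B1, which breaks it down, fell from 31.4 ± 8.37 to 3.04 ± 0.159 CPM (-3.37, SE 0.24, adjusted p = 7.3e-09), and with LPS from 7.50 ± 1.20 to 0.549 ± 0.289 CPM (-3.72, adjusted p = 1.2e-08).

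With LPS, the receptor gene RARA also fell, from 49.6 ± 10.2 to 24.4 ± 1.62 CPM (log2 fold change -1.02, adjusted p = 4.9e-06), as did RARB, with 25 to 48 counts against 0 to 4 (adjusted p = 0.011), and STRA6, a retinol transporter, with 3 to 15 counts against 0 in all 3 libraries (adjusted p = 0.026). CYP26B1 was lower with LPS in both lines, at -2.07 in scramble (adjusted p = 3.7e-06) and -2.42 in linc-ADAIN KD. The summed level of the list was 330 to 475 CPM in scramble and 190 to 215 CPM in linc-ADAIN KD, with the adipocyte marker levels differing alongside as given above, and the part of either in the HOX values was not tested.

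Among other transcription factors that mark body position, 18 were tested. In linc-ADAIN KD 1 rose and 3 fell without LPS, against 7.26% of all tested genes called in either direction, and 0 rose and 6 fell with LPS, against 8.3%, with medians of -0.16 and -0.10. Whether these shares differ from those of all genes or of HOX genes was not tested. EMX2, a gene of forebrain and urogenital development, rose from 6.15 ± 1.67 to 15.3 ± 2.45 CPM without LPS (log2 fold change 1.32, adjusted p = 0.00036). SIM1 fell from 13.9 ± 1.23 to 6.71 ± 0.929 CPM (-1.05, adjusted p = 4.7e-06), the hind limb factor PITX1 from 7.96 ± 0.947 to 3.97 ± 0.876 CPM (-1.01, adjusted p = 0.0023), and MEOX2 from 20 to 61 counts to 0 to 7 counts (adjusted p = 0.0080).

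With LPS, SIX2 fell from 152 ± 7.72 to 46.9 ± 7.10 CPM (-1.69, adjusted p = 1.5e-08), EN1, a marker of dermal and trunk fibroblast lineages, from 41.5 ± 1.50 to 18.5 ± 2.68 CPM (-1.17, adjusted p = 1.4e-07), and SIM1 from 52.4 ± 2.36 to 10.6 ± 1.15 CPM (-2.30, adjusted p = 2e-10). PITX1 and MEOX2 also fell. The interaction passed for SIM1 and SIX2 of this list, against 1.28% of all tested genes, with no test of the difference.

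Of the 3 nearest coding genes on each side of each cluster, 22 of 24 were tested. By edgeR, 0 passed both thresholds in either KD comparison, against 7.26% and 8.3% of all tested genes. For so short a list this is close to the background. By adjusted p alone, 4 and 2 of these genes passed, against 25.5% and 26.9% of all tested genes, with no test of the difference. Their median log2 fold changes were 0.06 and -0.02. EVX1 and EVX2, homeobox genes just beyond the posterior ends of HOXA and HOXD, were at 0 in all 12 libraries.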

How the data were processed

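The authors made libraries with the Illumina Stranded mRNA prep, pseudoaligned reads to GRCh38 transcriptomes with kallisto 0.44.0 and deposited estimated counts per gene name, in whole numbers and without normalization for depth or length. The annotation release and the strand setting are not given in the sources used here. A row with no gene name (0.235% to 0.306% of counts) was left out.

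In R 4.3.3, rounded counts of genes with at least 10 counts over 12 libraries were fitted in edgeR 4.0.16 (TMM, quasi-likelihood F test, 4 groups, Benjamini-Hochberg over 17173 genes). Calls needed an adjusted p under 0.05 and at least 2-fold, but no fold for the interaction and the test across groups. The standard error is the log2 fold change divided by the square root of F. Levels per kilobase used exon unions of GENCODE release 44. DESeq2 1.42.0, other scalings and filters, a replicate block and leaving out each library were alternatives. The test was tested on simulated data.

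Members and gene lists were chosen with earlier results of these data known. Values by library are given for called HOX genes and for the highest of each cluster per kilobase in any group. Per list, up to 4 called genes of highest mean CPM in the KD comparisons are named. HOXC9, HOXC4, HOXA10, STRA6 and MEIS1 go beyond these rules and were chosen after their values were seen. Replicates differed by more than sampling noise in every pair. HOX-cluster noncoding RNAs were not analysed here, and some genes of the lists are not reported here.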

Additional observations from a re-analysis of the deposited data

Results flagged for a closer look

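In the interaction of KD and LPS, 2 of 18 tested positional transcription factors beside the HOX genes passed, against 1.28% of all tested genes. These 2 differed between the shRNA lines in their response to LPS. SIM1 rose with LPS from 13.9 ± 1.23 to 52.4 ± 2.36 CPM in scramble and from 6.71 ± 0.929 to 10.6 ± 1.15 CPM in linc-ADAIN KD, an interaction of -1.25 on the log2 scale (edgeR, adjusted p = 0.0012). SIX2 went from 87.9 ± 15.7 to 152 ± 7.72 CPM in scramble and from 56.0 ± 7.77 to 46.9 ± 7.10 CPM in linc-ADAIN KD, an interaction of -1.04 (adjusted p = 0.0069). No HOX gene was past the threshold in this test.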

How the results depend on the processing

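Counts of HOX genes past both thresholds moved as follows. In linc-ADAIN KD without LPS the count of 0 became 1 with the 6 libraries compared only or without the filter (HOXA10), with DESeq2 (HOXB9) and by adjusted p alone (HOXC9), and was 0 without each library. With LPS, 0 became 1 (HOXB9) under the first 3 of these, 3 by adjusted p alone, and 0 to 1 without each library, 1 arising without replicate 3 of scramble (HOXB9) or replicate 2 of scramble with LPS (HOXC4). For LPS in scramble, 0 became 1 by adjusted p alone. For LPS in linc-ADAIN KD, 1 became 4 by adjusted p alone and ran from 0 to 2 without each library. Across the 4 groups, 5 became 9 with library size only. That scaling raised the median log2 fold change of all genes in KD without LPS by 0.11. The interaction stayed at 0 under every alternative.

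In scramble, the share of HOXC in the summed level was 67.7% with the longest transcript as length and 70.0% with no length, HOXB 18.5% and 16.1%, HOXA 7.91% and 8.84%, and HOXD 5.12% with no length. No alternative changed the order of HOXC and HOXB above the other 2 clusters.

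Values close to 0 changed sign. With library size only, HOXB7 was 0.051 and HOXC11 0.012 in KD without LPS, and HOXA11 was 0.035, HOXC10 0.079 and HOXC9 0.082 with LPS. DESeq2 gave HOXC9 0.00021 with LPS. Without each library in turn, values without LPS ran from -0.12 to 0.28 for HOXA9, -0.11 to 0.0064 for HOXB7, -0.039 to 0.36 for HOXC5 and -0.064 to 0.15 for HOXD8, and values with LPS ran from -0.49 to 1.16 for HOXA10, -0.13 to 0.035 for HOXA11, -0.031 to 0.17 for HOXA9, -0.050 to 0.039 for HOXC10, -0.26 to 0.010 for HOXC11, -0.0048 to 0.35 for HOXC5, -0.050 to 0.069 for HOXC6, -0.11 to 0.088 for HOXC9 and -0.065 to 0.28 for HOXD4. No other of the 43 single-gene values reversed, and 19 kept direction and side of the threshold under every alternative.

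The sample labels do not say whether same-numbered replicates are paired, and the main fit treated them as unpaired. Of same-numbered pairs across groups, 2 of 18 correlated over 0.1 (-0.14 to 0.22). With and without LPS, replicates 1, 2 and 3 correlated at 0.22, 0.091 and 0.053 in scramble and at 0.096, -0.077 and 0.088 in linc-ADAIN KD. Correlations this weak cannot decide whether replicates were paired. With the replicate block, 0, 0, 0 and 1 HOX genes passed in the 4 comparisons in the order above, 0 in the interaction and 4 across the groups (HOXB9 lost).

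Depth limits the 12 tested genes under 50 counts per library. With 3 libraries a group, an exact two-sided permutation test of 1 value cannot go below 0.10.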
